A study of Mus musculus with 8 samples.

Results

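Cell cycle and DNA replication genes were followed as a set of 44 genes, fixed by name and matched to the gene symbol in the deposited tables, out of 52636 genes listed. All 44 names were found, each once. By their best known role, 19 were placed in S phase and the steps that lead into it and 25 in G2 and mitosis (G2-M). Whole liver RNA was sequenced from 8 samples of C57BL/6 mice aged 8 weeks. The 4 WT samples were CTCF fl/fl Albcre-, with floxed Ctcf and no Cre, and the 4 cKO samples were CTCF fl/fl Albcre+, with the same floxed alleles and Cre driven by the albumin promoter, a promoter of hepatocytes. Both groups thus carried the floxed alleles, and with no sample of Cre alone, the effects of Cre and of Ctcf loss cannot be told apart. The labels do not state that each sample was a separate animal, so every p-value rests on the spread between libraries, which may be technical. In whole liver, more cells of a type and more RNA per cell cannot be told apart.

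Adult hepatocytes are mostly out of the cell cycle and return to it after injury or resection. On that return, D and E cyclins with their kinases release E2F factors from the RB family, E2F switches on the genes for origin licensing, nucleotide supply and the replication fork, and the later wave of G2-M genes is driven by B-MYB, FOXM1 and the MuvB complex through promoter elements called CHR. Hepatocytes can also replicate without dividing and become polyploid, and resident immune, stromal and ductal cells add their own cycling cells to a whole liver sample.

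Totals of assigned counts ran from 43899481 to 50376750 per WT library and from 50258178 to 57279620 per cKO library. Ctcf itself was lower in each cKO library than in every WT library (16.5 ± 0.41 against 12.2 ± 0.945 CPM, mean ± SD with n = 4 in each group here and throughout). An exact permutation test, two-sided, gave p = 0.0286, the smallest possible with 4 against 4. In both fits on log2 TPM the call on Ctcf was lost (limma adjusted p = 0.147 and 0.15). CPM are counts scaled by the library total and its TMM factor, which ran from 0.958 to 0.973 in WT and from 1.02 to 1.06 in cKO. At an equal CPM, the raw counts given below thus run higher in cKO libraries. Markers of hepatocytes summed to 85470.4 to 114037 CPM in WT and 96847 to 108758 CPM in cKO, so the samples held the labelled tissue. Of 15562 genes tested with edgeR, 2386 (15.3%) rose and 2352 (15.1%) fell in cKO, 30.4% in all, at an adjusted p under 0.05. With library size as the only scaling the split was 3621 and 1335, and the median of all genes moved by 0.11 on the log2 scale. Fits with limma on log2(TPM + 1) and log2(TPM + 0.1) gave 3880 against 878 and 3868 against 876, with shifts of 0.10 and 0.16.

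Of the 44 members 41 had enough counts to be tested, and of these 8 were higher and 2 lower in cKO. The S members were split, with 3 of 18 tested higher (16.7%, against 15.3% of all genes), 2 lower (11.1%, against 15.1%) and a median log2 change of -0.02. Of 23 G2-M members tested, 5 were higher (21.7%, against 15.3%) and 0 lower (against 15.1%). No tested G2-M member was lower by DESeq2 or limma-voom either, and 0 were lower at an unadjusted p under 0.05 in edgeR. The median log2 change was 0.50 over the tested G2-M members and -0.01 over all genes tested, and 19 of the 23 estimates were above 0. Under the alternatives the G2-M median stayed above 0 (0.10 to 0.64), while the S median took both signs (-0.07 to 0.20), being 0.09 with library size alone. The lowest G2-M value came from the fit on log2(TPM + 1), where it was 0.10, the S median 0.11 and the median of all genes 0.10, so that G2-M did not stand apart on that scale. Of the G2-M members, 5 (Foxm1, Ccnb1, Aurkb, Bub1b and Cenpe) reached the count filter in all 4 cKO libraries but not in all 4 WT libraries, so the counts over tested members lean towards higher values. Each S member that was tested reached it in all 8 libraries. Of the 8 calls for higher members, 6 (Mcm6, Rrm2, Ccne1, Cdc20, Mki67 and Top2a) were lost when single libraries were left out, as given below for each.

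**Figure D1:**
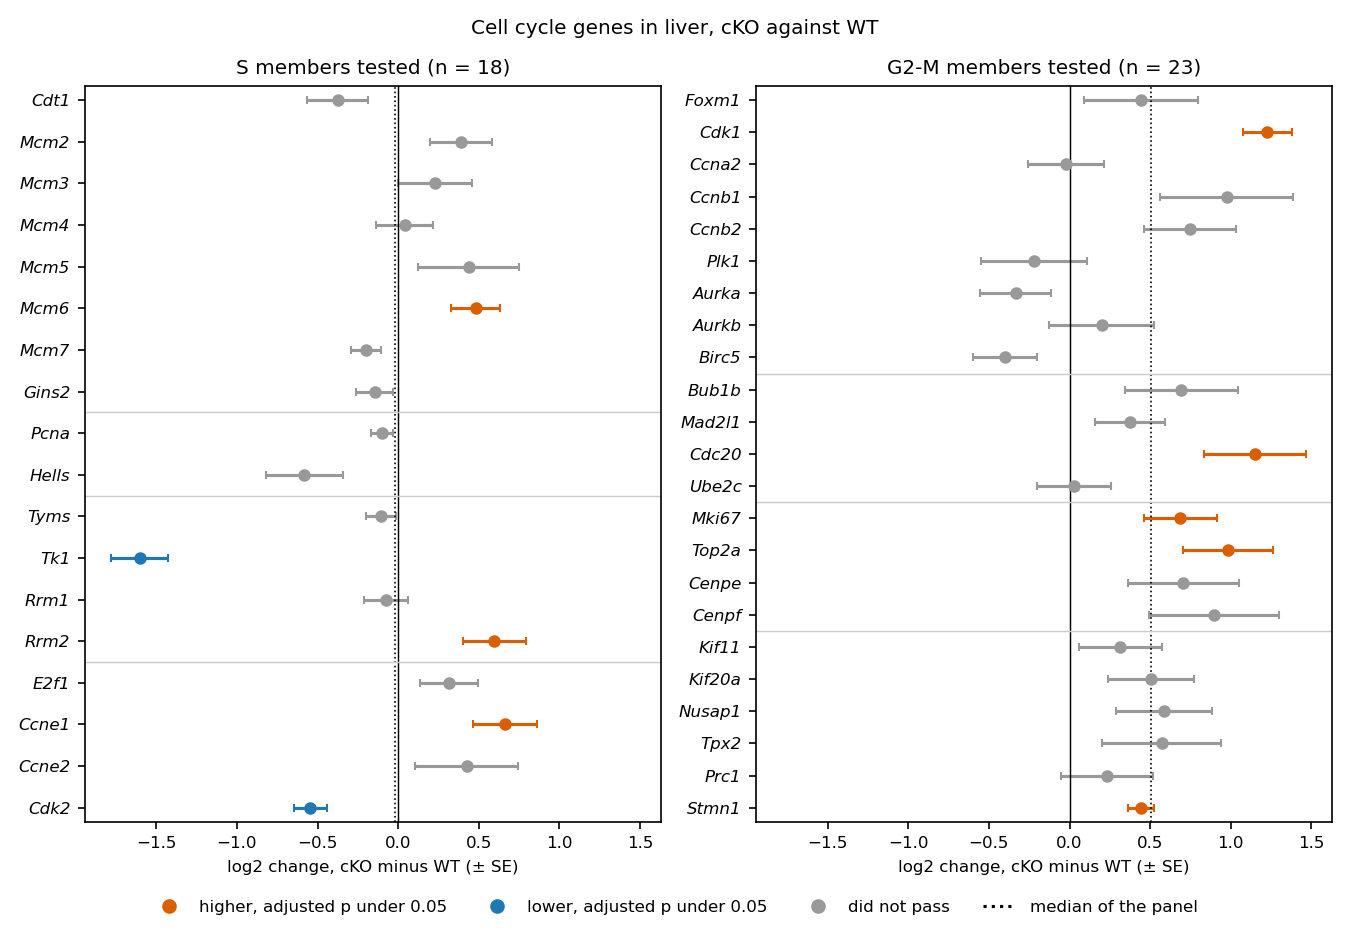
Log2 change in cKO against WT (x axis, ± SE) for the 18 S members (left) and 23 G2-M members (right) that were tested, with grey rules between roles and the panel median dotted. The S members lie on both sides of 0, from -1.60 to 0.66, and 19 of the 23 G2-M members lie above 0, up to 1.23.

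Tk1, the cytosolic thymidine kinase that salvages thymidine for DNA synthesis, showed the largest change of the 41 tested members. It stood at 55.3, 80.5, 61.9 and 62.8 CPM in WT replicates 1 to 4 and 26.8, 23.3, 15.3 and 20.4 CPM in cKO replicates 1 to 4. Every cKO library was below every WT library, and the mean fell from 65.1 ± 10.8 to 21.4 ± 4.88 CPM (a log2 change of -1.60 with an SE of 0.18; edgeR, adjusted p = 0.000426), which left 32.9% of the WT level. The call held under all 20 alternatives, with log2 changes from -1.73 to -1.46. Tk1 (ENSMUSG00000025574, chromosome 11, 117815519 to 117826087, RefSeq's annotation of GRCm38.p6) starts on the opposite strand 95 bases from Afmid, the gene for kynurenine formamidase, and the annotated genes overlap by 585 bases. The strand setting of the counting is not given in the sources used here, so reads from those bases cannot be told apart. Afmid was lower as well, from 171 to 111 CPM (a log2 change of -0.63 with an SE of 0.13; edgeR, adjusted p = 0.00685).

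Of the other enzymes of nucleotide supply, 1 was higher and none lower. Rrm2 (ENSMUSG00000020649, chromosome 12, 24708254 to 24714146), the S phase subunit of ribonucleotide reductase, had 1.96, 2.48, 1.99 and 2.53 CPM in WT replicates 1 to 4 and 2.47, 3.39, 4.67 and 2.98 CPM in cKO replicates 1 to 4. Only cKO replicate 1 lay within the WT range, and the mean was higher in cKO (a log2 change of 0.60 with an SE of 0.20; edgeR, adjusted p = 0.0378). The call was lost without WT replicate 1, 2 or 3 or cKO replicate 2, 3 or 4 (edgeR adjusted p 0.0507 to 0.0989), and with limma-voom (adjusted p = 0.0522). Rrm1, the large subunit of the same enzyme, had 5.26 ± 0.659 CPM over the WT and 4.98 ± 0.771 CPM over the cKO libraries (a log2 change of -0.08 with an SE of 0.14; edgeR, adjusted p = 0.705). Tyms, thymidylate synthase, had 5.92 ± 0.268 CPM over the WT and 5.5 ± 0.325 CPM over the cKO libraries (a log2 change of -0.11 with an SE of 0.09; edgeR, adjusted p = 0.42), and its sign turned under library size scaling, an offset for effective length and TPM.

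Among the regulators of S phase entry, Cdk2 fell and Ccne1 rose. Cdk2 (ENSMUSG00000025358, chromosome 10, 128697938 to 128705051), the kinase partner of cyclins E and A, had 14.7, 15.8, 16.5 and 12.6 CPM in WT replicates 1 to 4 and 10.7, 10.6, 10.6 and 8.77 CPM in cKO replicates 1 to 4. The groups did not overlap, and Cdk2 fell to 68.5% of the WT level (a log2 change of -0.55 with an SE of 0.10; edgeR, adjusted p = 0.00285), a call that held under all 20 alternatives. The annotated gene Pmel overlaps it by 7114 bases and had 0.515 CPM in the WT and 0.418 CPM in the cKO libraries. Ccne1 (ENSMUSG00000002068, chromosome 7, 38097984 to 38107490), a cyclin E, had 1.06, 1.34, 1.12 and 1.85 CPM in WT replicates 1 to 4 and 1.76, 2.01, 2.51 and 2.2 CPM in cKO replicates 1 to 4, with 1 WT library above the lowest cKO library. It was higher in cKO (a log2 change of 0.66 with an SE of 0.20; edgeR, adjusted p = 0.0255), and without WT replicate 1, 2 or 3 or cKO replicate 3 or 4 its adjusted p was 0.0559 to 0.0743. Ccne2, the second cyclin E, had 0.56 ± 0.241 CPM over the WT and 0.742 ± 0.198 CPM over the cKO libraries (log2 change 0.42, edgeR adjusted p = 0.342) and E2f1, an activator of S phase genes, 1.77 ± 0.361 CPM over the WT and 2.2 ± 0.346 CPM over the cKO libraries (log2 change 0.31, edgeR adjusted p = 0.211). The annotated gene Ints8 overlaps Ccne2 by 5622 bases and had 12 CPM in the WT and 11.5 CPM in the cKO libraries.

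The 5′ ends of both genes that fell are shown because they carry the clearest changes among the S members. Each run covers 250 bases before and 50 after the start annotated by RefSeq on GRCm38.p6, 5′ to 3′ on the gene's strand, for Tk1 at chr11:117825965-117826264, minus strand and for Cdk2 at chr10:128705002-128705301, minus strand. The start used for Tk1 was 117826014, while the annotated gene runs further upstream to 117826087, which lies inside the window. Capitals mark E2F elements, CHR elements and CCAAT boxes on either strand, as spelled out further on, and the Tk1 window held none of them.
Tk1: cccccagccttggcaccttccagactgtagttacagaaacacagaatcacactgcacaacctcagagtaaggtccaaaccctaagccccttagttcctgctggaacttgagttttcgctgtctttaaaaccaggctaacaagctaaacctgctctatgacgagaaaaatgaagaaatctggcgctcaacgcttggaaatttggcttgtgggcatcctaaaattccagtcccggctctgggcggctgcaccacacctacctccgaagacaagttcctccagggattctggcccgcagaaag
Cdk2: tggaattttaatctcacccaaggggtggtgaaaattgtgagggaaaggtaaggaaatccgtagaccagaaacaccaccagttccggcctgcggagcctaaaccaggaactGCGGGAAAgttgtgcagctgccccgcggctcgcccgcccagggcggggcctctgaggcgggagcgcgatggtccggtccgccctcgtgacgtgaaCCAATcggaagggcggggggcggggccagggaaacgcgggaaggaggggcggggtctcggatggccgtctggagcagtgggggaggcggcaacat

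Of 8 origin licensing genes tested, 1 was higher (12.5%, against 15.3% of all genes). The 6 subunits of the MCM2-7 helicase form 1 ring, and their estimates were spread: Mcm2, Mcm3, Mcm4, Mcm5, Mcm6 and Mcm7 had log2 changes of 0.39, 0.23, 0.04, 0.44, 0.48 and -0.20. Mcm6 (ENSMUSG00000026355, chromosome 1, 128331575 to 128359705) had 1.92, 2.43, 3.02 and 2.64 CPM in WT replicates 1 to 4 and 3.69, 2.95, 3.55 and 3.75 CPM in cKO replicates 1 to 4. WT replicate 3 lay above cKO replicate 2 and the other libraries were apart (a log2 change of 0.48 with an SE of 0.15; edgeR, adjusted p = 0.0345). That call was lost without WT replicate 1 or 2 or cKO replicate 1, 3 or 4 (edgeR adjusted p 0.0674 to 0.0894). Mcm2 passed only when WT replicate 3, its highest WT library, was left out (edgeR adjusted p = 0.0372), or with limma on log2(TPM + 1) (adjusted p = 0.0454). Mcm3, Mcm4, Mcm5 and Mcm7 had adjusted p values of 0.472, 0.884, 0.313 and 0.117 with edgeR.

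Cdt1, which delivers the helicase to origins, had 3.24 ± 0.246 CPM over the WT and 2.5 ± 0.774 CPM over the cKO libraries (log2 change -0.38, edgeR adjusted p = 0.155). cKO replicate 3, at 3.64 CPM, was above every WT library while the other 3 cKO libraries were below all of them, and without it the adjusted p was 0.0136. Cdc6, the helicase loader, was too low to test, with 3, 4, 2 and 11 counts in WT replicates 1 to 4 and 8, 3, 9 and 19 counts in cKO replicates 1 to 4. Gins2, of the GINS complex that activates the helicase, had 16.2 ± 1.91 CPM over the WT and 14.7 ± 2.13 CPM over the cKO libraries (log2 change -0.15, edgeR adjusted p = 0.361). Pcna, the sliding clamp of the replication fork, had 18.9, 18.2, 20.1 and 18.4 CPM in WT replicates 1 to 4 and 17.2, 16.9, 18.2 and 18.2 CPM in cKO replicates 1 to 4. Its libraries did not overlap in CPM, by a narrow margin, with all cKO values lower, but the difference was small and did not pass (a log2 change of -0.10 with an SE of 0.07; edgeR, adjusted p = 0.272), and in TPM its sign turned. Hells, a chromatin remodeller, had 0.962 ± 0.221 CPM over the WT and 0.637 ± 0.144 CPM over the cKO libraries without overlap (a log2 change of -0.58 with an SE of 0.24; edgeR, adjusted p = 0.0849), and passed with an offset for effective length (adjusted p = 0.0196).

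Cdk1 was the clearest change among the G2-M members. This kinase, which with cyclins A and B drives entry into mitosis (ENSMUSG00000019942, chromosome 10, 69335146 to 69352912), stood at 1.2, 1.56, 1.67 and 1.17 CPM in WT replicates 1 to 4 and 3.04, 3.22, 3.34 and 3.49 CPM in cKO replicates 1 to 4. The lowest cKO library was well above the highest WT library, and the level rose 2.34-fold (a log2 change of 1.23 with an SE of 0.15; edgeR, adjusted p = 0.000249). The call held under all 20 alternatives, with log2 changes from 0.96 to 1.33. Its cyclins had lower levels in TPM and did not pass. Ccnb1, a B cyclin, had 4, 3, 11 and 10 counts in WT replicates 1 to 4 and 12, 13, 20 and 23 counts in cKO replicates 1 to 4 (log2 change 0.97, edgeR adjusted p = 0.0967). Ccnb2, the other B cyclin, had 0.503 ± 0.162 CPM over the WT and 0.841 ± 0.23 CPM over the cKO libraries (log2 change 0.75, edgeR adjusted p = 0.069) and passed without WT replicate 3 or cKO replicate 3 (adjusted p 0.0408 and 0.0239), with library size alone (0.0373) and in both TPM fits (0.0284 and 0.0324). Ccna2, the A cyclin of S phase and G2, had 0.722 ± 0.0775 CPM over the WT and 0.712 ± 0.215 CPM over the cKO libraries (a log2 change of -0.02 with an SE of 0.24; edgeR, adjusted p = 0.956). The annotated gene Exosc9 overlaps Ccna2 by 863 bases and had 10.6 CPM in the WT and 11.2 CPM in the cKO libraries.

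**Figure D2:**
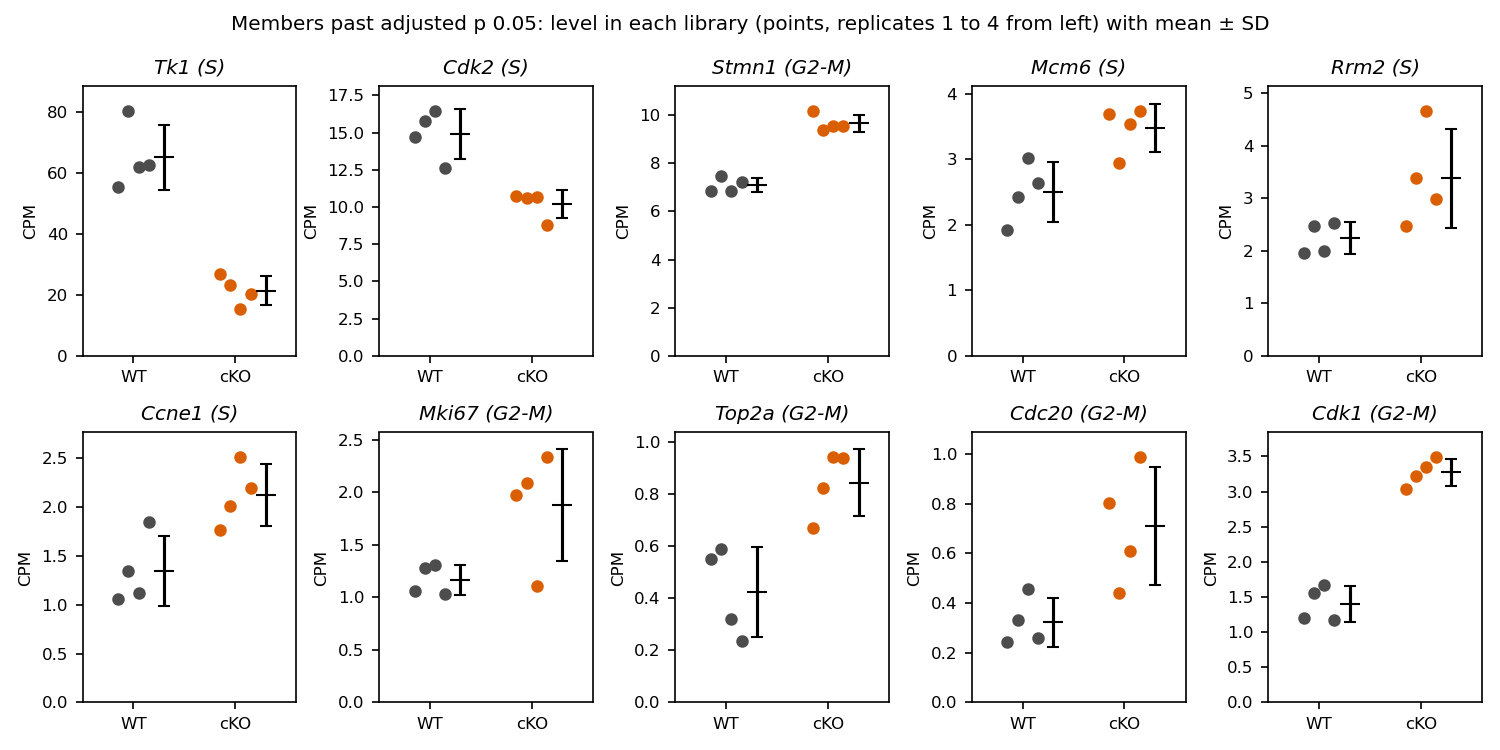
CPM (y axis, from 0) of the 10 members past an adjusted p of 0.05 in each library, WT grey and cKO orange, replicates 1 to 4 from left, with mean ± SD in black. The groups do not overlap for Tk1, Cdk2, Stmn1, Top2a and Cdk1, and overlap for Mcm6, Rrm2, Ccne1, Mki67 and Cdc20.

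The remaining mitotic regulators gave values on both sides of 0. Birc5 (survivin) and Aurkb, of the chromosomal passenger complex, had log2 changes of -0.40 and 0.20, Aurka, the spindle pole kinase, -0.33 and Plk1, the Polo-like kinase, -0.22, with edgeR adjusted p values of 0.15, 0.675, 0.268 and 0.639. In TPM the signs of Birc5 and Aurkb turned. Foxm1, the transcription factor of G2-M genes, was low, with 0.29 ± 0.162 CPM over the WT and 0.39 ± 0.0702 CPM over the cKO libraries (log2 change 0.44, edgeR adjusted p = 0.372).

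Genes of mitotic chromosomes had low counts, and of 4 tested 2 were higher (50%, against 15.3% of all genes). Top2a, the topoisomerase that untangles sister chromatids (ENSMUSG00000020914, chromosome 11, 98992947 to 99024199), had 27, 25, 14 and 10 counts in WT replicates 1 to 4 and 35, 43, 51 and 55 counts in cKO replicates 1 to 4, which came to 0.424 ± 0.173 CPM over the WT and 0.843 ± 0.128 CPM over the cKO libraries without overlap (a log2 change of 0.98 with an SE of 0.28; edgeR, adjusted p = 0.0206). The call was lost without WT replicate 3 or cKO replicate 4 (edgeR adjusted p 0.0623 and 0.0553) and in fits that use transcript length: the length that RSEM assigned to Top2a was 1.34 times as long in cKO as in WT, and with it as an offset the adjusted p was 0.321. Mki67, which encodes Ki-67, a coat protein of mitotic chromosomes (ENSMUSG00000031004, chromosome 7, 135689784 to 135716450), had 1.06, 1.27, 1.31 and 1.03 CPM in WT replicates 1 to 4 and 1.97, 2.09, 1.11 and 2.33 CPM in cKO replicates 1 to 4. WT values lay close together, and cKO replicate 3 was within the WT range (a log2 change of 0.69 with an SE of 0.23; edgeR, adjusted p = 0.0387). Leaving out any 1 of the 4 WT libraries or cKO replicate 1, 2 or 4 gave edgeR adjusted p values of 0.0613 to 0.115, and without cKO replicate 3 it passed. With limma-voom the adjusted p was 0.0712 and in the TPM fits 0.0577 and 0.0509. The kinetochore genes Cenpe and Cenpf had log2 changes of 0.71 and 0.90 (edgeR adjusted p = 0.141 and 0.113); Cenpf passed without cKO replicate 3 (0.0388).

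Cdc20, the activator of the anaphase-promoting complex (ENSMUSG00000006398, chromosome 4, 118432901 to 118437343), had 12, 14, 20 and 11 counts in WT replicates 1 to 4 and 42, 23, 33 and 58 counts in cKO replicates 1 to 4. In CPM cKO replicate 2 lay just below the highest WT library, and the mean rose from 0.323 ± 0.0979 to 0.711 ± 0.237 CPM (a log2 change of 1.15 with an SE of 0.32; edgeR, adjusted p = 0.0185). Without WT replicate 1 or cKO replicate 4 the adjusted p was 0.0573 and 0.0585, and with an offset for effective length 0.091. The overlap of Cdc20 with the annotated gene Elovl1 is 53 bases, and Elovl1 was higher as well, from 32.6 CPM in WT to 41.6 CPM in cKO (log2 change 0.35, edgeR adjusted p = 0.0149). Ube2c, which works with the same complex, had 0.432 ± 0.0449 CPM over the WT and 0.44 ± 0.0682 CPM over the cKO libraries (a log2 change of 0.03 with an SE of 0.23; edgeR, adjusted p = 0.94). Of the spindle checkpoint genes, Bub1b and Mad2l1 had log2 changes of 0.69 and 0.37 (edgeR adjusted p = 0.158 and 0.217). Bub1 was too low to test, with 1, 1, 1 and 0 counts in WT replicates 1 to 4 and 2, 4, 3 and 12 counts in cKO replicates 1 to 4, and without the count filter its adjusted p was 0.0431.

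Stmn1 (stathmin, which destabilises microtubules; ENSMUSG00000028832, chromosome 4, 134468320 to 134473843) had the highest TPM of the G2-M members. Its levels were 6.85, 7.45, 6.85 and 7.23 CPM in WT replicates 1 to 4 and 10.2, 9.38, 9.55 and 9.52 CPM in cKO replicates 1 to 4. The spread within groups was small, no libraries overlapped and the level was 1.36-fold higher in cKO (a log2 change of 0.44 with an SE of 0.08; edgeR, adjusted p = 0.00241), under all 20 alternatives. The other spindle and cytokinesis genes that were tested, the motors Kif11 and Kif20a, the microtubule proteins Nusap1 and Prc1 and the Aurora A activator Tpx2, had log2 changes of 0.31, 0.50, 0.58, 0.23 and 0.57. None of the 5 passed (edgeR adjusted p 0.161 to 0.563), although Kif20a did not overlap between genotypes. Ect2, which activates RhoA at the cleavage furrow, was too low to test, with 8, 7, 7 and 7 counts in WT replicates 1 to 4 and 19, 8, 16 and 24 counts in cKO replicates 1 to 4. Without cKO replicate 2, its lowest cKO library, it reached the filter and had an edgeR adjusted p of 0.0245. It was also tested without WT replicate 1, 2, 3 or 4 and did not pass (edgeR adjusted p 0.116 to 0.148). Nor did it pass without the count filter (edgeR adjusted p = 0.12).

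Among tested members, the genotypes did not overlap in CPM for 4 S members (Tk1, Cdk2, Pcna and Hells), each lower in cKO (22.2%, against 15.6% of all genes tested), and for 4 G2-M members (Cdk1, Top2a, Stmn1 and Kif20a), each higher in cKO (17.4%, against 15% of all genes tested). In either direction 30.6% of all genes did not overlap.

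Promoters of the 2 G2-M members with the smallest p among those that rose and are listed in RefSeq's promoter table are shown for the same window, for Cdk1 at chr10:69352863-69353162, minus strand and for Cdc20 at chr4:118437294-118437593, minus strand on GRCm38.p6, with E2F elements, CHR elements and CCAAT boxes again in capitals.
Cdk1: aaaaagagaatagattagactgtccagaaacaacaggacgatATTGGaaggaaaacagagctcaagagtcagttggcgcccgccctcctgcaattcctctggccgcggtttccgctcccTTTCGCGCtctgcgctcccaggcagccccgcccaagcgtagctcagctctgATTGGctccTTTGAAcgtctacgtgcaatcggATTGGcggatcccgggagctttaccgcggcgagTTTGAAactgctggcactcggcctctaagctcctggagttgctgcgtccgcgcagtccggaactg
Cdc20: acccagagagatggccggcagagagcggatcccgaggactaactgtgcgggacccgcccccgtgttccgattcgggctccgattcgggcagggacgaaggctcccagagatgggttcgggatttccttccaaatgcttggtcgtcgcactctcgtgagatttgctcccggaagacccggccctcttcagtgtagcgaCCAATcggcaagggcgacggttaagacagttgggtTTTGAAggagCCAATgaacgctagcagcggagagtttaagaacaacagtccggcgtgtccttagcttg

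The promoter table held 35 of the 44 members, with 38 windows. A member was counted once if any of its windows held a match, while the shares of all promoters count each window. Some listed starts lie inside the annotated gene. That of E2f1, on the minus strand, is at 154569426 and the gene runs to 154569892, so its window lies within the gene. 4 kinds of element were searched on both strands: an E2F element (TTTCCCGC, TTTCGCGC, TTTGCCGC or TTTGGCGC), a CHR element (TTTGAA or TTCGAA), the CCAAT box (CCAAT) and part of the CTCF motif (CAGNNGGCG). Matches of different kinds shared letters at 1 place in the members' promoters. An E2F element was found in 8 of 16 S members and in 1 of 19 G2-M members, Cdk1, against 2.26% of all 32851 promoters. CHR elements were found in 2 of 16 S members and 14 of 19 G2-M members, against 19.2% of all promoters. The CCAAT box was found in 9 of 16 and 16 of 19, against 37.4%. All 4 G2-M members that rose and are in the table (Cdk1, Cdc20, Mki67 and Top2a) had both a CHR element and a CCAAT box; of the 13 that did not pass, 8 had the first and 10 the second. The part of the CTCF motif was found in 4 of 16 S members, 3 of 19 G2-M members and 8.23% of all promoters; of the members that passed, Cdk1 and Rrm2 had it. These matches describe letters in 1 window and show neither binding nor use.

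In TPM, a unit that corrects for length, Tk1 ranked first among the 44 members with a mean of 45.5 over the 8 libraries, followed by Pcna at 15.7, Stmn1 at 11.0, Mcm7 at 8.9 and Tyms at 8.5 TPM. Cenpf, Bub1 and Cenpe were lowest, at 0.0338, 0.035 and 0.0612 TPM. Mki67, often used to mark cycling cells, ranked 33 of 44. Tk1 was the top member in WT by a wide margin (67.2 ± 11.5 TPM, against 15.2 ± 0.568 TPM for Pcna) and lay nearer to Pcna in cKO (23.7 ± 5.25 against 16.1 ± 1.13 TPM), where the lowest Tk1 value, 17.0 TPM in cKO replicate 3, was below the Pcna value of 17.2 TPM in the same library. The helicase subunits were unequal: Mcm7 had 9 ± 0.702 TPM in WT, and Mcm2, Mcm3, Mcm4, Mcm5 and Mcm6 had 0.380, 1.64, 0.475, 0.230 and 0.883 TPM there.

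**Figure D3:**
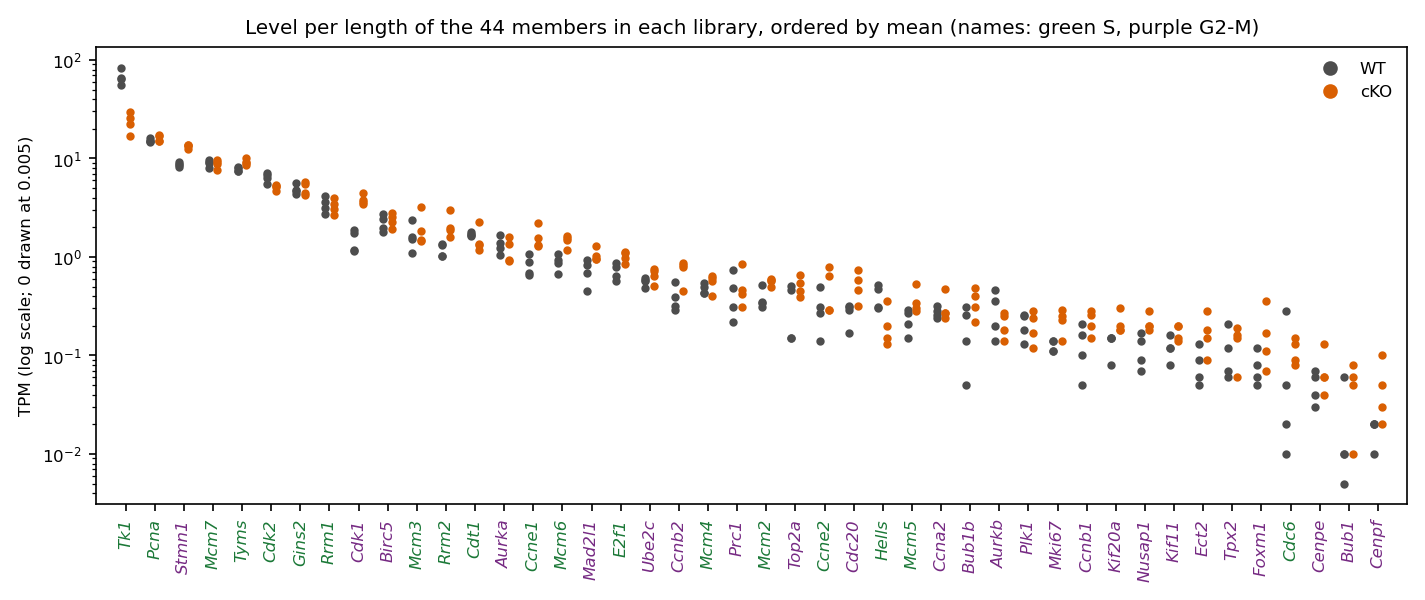
TPM (y axis, log scale) of the 44 members in the 4 WT (grey) and 4 cKO (orange) libraries, ordered by mean, with S names green and G2-M names purple. Tk1 ranks first and falls in cKO, and the lower end is filled mostly by G2-M members near or below 0.204 TPM.

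Summed levels put the members on 1 scale per library. The 19 S members added up to 147, 174, 160.2 and 151 CPM in WT replicates 1 to 4 and 115, 103, 107 and 106 CPM in cKO replicates 1 to 4. That sum was lower in every cKO library, and Tk1 made up most of the difference: without it, the other 18 S members added up to 92.1, 93.4, 98.3 and 88.6 CPM in WT replicates 1 to 4 and 88.5, 79.7, 92.1 and 85.7 CPM in cKO replicates 1 to 4, with overlap between genotypes. In TPM the S members without Tk1 summed to 55.6 ± 2.77 in WT and 59.5 ± 3.97 in cKO, so that the order of the means turned with the unit. The 25 G2-M members added up to 20.7, 23.9, 25.3 and 20.8 CPM in WT replicates 1 to 4 and 31.3, 28.2, 27.1 and 32.6 CPM in cKO replicates 1 to 4. Here every cKO library was above every WT library, in TPM as well (17.1, 19.7, 19.2 and 17.5 against 28.3, 25.3, 27.0 and 29.6 TPM). Without Stmn1, a sum chosen after the values were seen, the other 24 G2-M members added up to 13.9, 16.5, 18.5 and 13.6 CPM in WT replicates 1 to 4 and 21.1, 18.9, 17.5 and 23.1 CPM in cKO replicates 1 to 4, where WT replicate 3 was above cKO replicate 3, so the separation in CPM rested on Stmn1. In TPM the groups stayed apart without it (8.53, 10.5, 11.0 and 8.78 against 14.6, 12.8, 13.5 and 15.9 TPM). The fits on log2 TPM also moved the median of all genes up in cKO, by 0.10 and 0.16. The part of that shift in the TPM sums was not tested. These sums carry no test, since the members were chosen with results known.

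**Figure D4:**
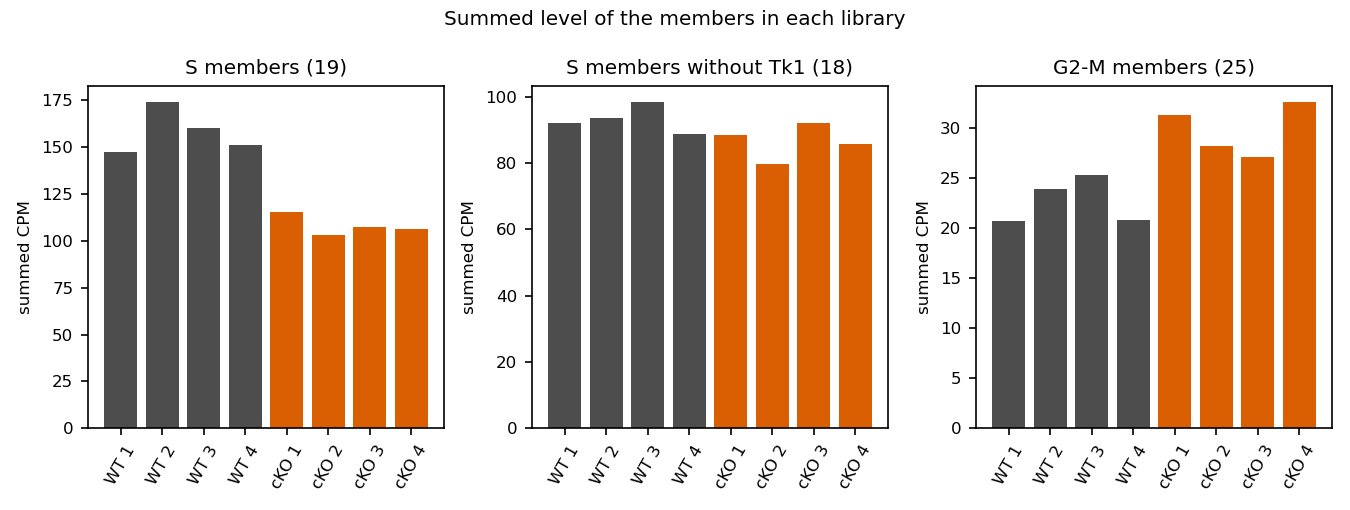
Summed CPM (y axis, from 0) of the 19 S members, of the 18 S members other than Tk1 and of the 25 G2-M members in each library, WT grey and cKO orange. The S sum is lower and the G2-M sum higher in each cKO library, while the S sum without Tk1 overlaps between genotypes, as does the G2-M sum in CPM without Stmn1 (not drawn).

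Single libraries differed in how often they held the extreme value. cKO replicate 4 had the highest CPM for 10 of 25 G2-M members and 5 of 19 S members, and WT replicate 4 the lowest for 7 of 25 G2-M members. cKO replicate 2 had the lowest value for 7 of 19 S members. Within genotypes the coefficient of variation of CPM had a median of 15.1% in WT and 15.6% in cKO over tested S members, and of 27.9% and 22.6% over tested G2-M members.

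All genes tested were also viewed by level, a view added after the data were seen. Of 3082 genes with a mean of at least 0.2 and under 1 CPM, 51.3% had estimates above 0. Of the same genes 11.6% were higher and 7.4% lower in cKO, with a median log2 change of 0.03. The 17 G2-M members in that range had a median of 0.57, with 15 estimates above 0. Of these members 2 were higher, near the 11.6% of all genes there. Among the 17 are Foxm1, Ccnb1, Aurkb, Bub1b and Cenpe, which reached the count filter through the cKO libraries, so these values lean towards higher. Of 3207 genes with at least 1 and under 5 CPM, 54.3% had estimates above 0, 17.7% were higher and 11.7% lower, with a median of 0.05. Of the 8 S members there, 7 had estimates above 0, with a median of 0.35 and 3 higher. Of the 5 G2-M members, 3 had estimates above 0, with a median of 0.37 and 2 higher. Of 7934 genes with at least 5 and under 100 CPM, 47.7% had estimates above 0, 16.5% were higher and 18.3% lower. Of the 7 S members there (Mcm7, Gins2, Pcna, Tyms, Tk1, Rrm1 and Cdk2), 0 had estimates above 0 and 2 were lower. Of these, Gins2, Pcna, Tyms and Rrm1 changed sign under another scaling, unit or left-out library.

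Of 48 other replication genes tested, 5 rose and 4 fell (10.4% and 8.33%, both below the 15.3% and 15.1% of all genes), with a median of -0.03. Mcm10, which helps to start the fork, fell from 90.9 ± 9.13 to 54.6 ± 5.54 CPM (a log2 change of -0.73 with an SE of 0.09; edgeR, adjusted p = 0.000301), and Pold1, the catalytic subunit of polymerase delta, fell too (a log2 change of -0.66 with an SE of 0.12; edgeR, adjusted p = 0.00296). Rfc5, of the clamp loader, had a log2 change of -0.37 and Orc4, of the origin recognition complex, one of 0.28 (edgeR adjusted p = 0.0278 and 0.0279). Both calls were lost without WT replicate 1, 2 or 3 or cKO replicate 2, that of Rfc5 also without cKO replicate 4 and that of Orc4 without cKO replicate 3 (adjusted p 0.0591 to 0.0791 for Rfc5 and 0.0515 to 0.0739 for Orc4).

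Among other genes of mitosis more were higher than lower. Of 48 tested among 76 listed, 10 were higher and 3 lower (20.8% and 6.25%, against 15.3% and 15.1% of all genes), with a median of 0.23. Tuba1b, an alpha tubulin, rose from 29.1 ± 1.09 to 52.5 ± 6.22 CPM (edgeR adjusted p = 7.78e-05), and Smc4, of condensin, had a log2 change of 0.45. Pttg1 (securin) and Ncapd3, of condensin II, were lower, at -0.40 and -0.49; both fits on log2 TPM ended these calls (adjusted p 0.0556 to 0.0994).

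Of 19 tested E2F, RB and DREAM genes, which control these waves, 3 were higher and 4 lower (15.8% and 21.1%, near the 15.3% and 15.1% of all genes). E2f7, a repressor of the E2F family that restrains S phase genes and promotes polyploidy in mouse liver, fell from 0.681 ± 0.314 to 0.142 ± 0.0376 CPM (a log2 change of -2.24 with an SE of 0.41; edgeR, adjusted p = 0.00254). Its cKO mean lay under the count filter's cut of 0.199 CPM, so it was tested mainly through its WT libraries. E2f6, another repressor, rose by 0.58 on the log2 scale and Mybl1, a MYB factor best known from the germline, by 2.22, and the DREAM subunit Lin37 fell, with a log2 change of -0.40 (edgeR adjusted p = 0.00187, 0.0023 and 0.0128). The remaining calls, named after their values were seen, were, as log2 changes, E2f8, the partner of E2f7, at -0.95, Mybl2, which encodes B-MYB, at -0.65 and Rbl1 (p107) at 0.70, with edgeR adjusted p values of 0.0215, 0.0166 and 0.0427. Without WT replicate 1 or 2 or cKO replicate 2 E2f8 had 0.0504 to 0.0604, without WT replicate 3 or cKO replicate 3 Mybl2 had 0.0528 and 0.052, and Rbl1 lost its call without any library but WT replicate 2 (0.0515 to 0.0971).

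Of 15 tested inhibitors and brakes of the cycle, 2 were higher (13.3%, against 15.3% of all genes) and the others did not pass. Cdkn2c (p18), an inhibitor of CDK4 and CDK6, rose from 4.92 ± 0.359 to 8.64 ± 0.682 CPM (a log2 change of 0.81 with an SE of 0.10; edgeR, adjusted p = 0.000242), and Cdkn1c (p57) had a log2 change of 0.53, a call lost without WT replicate 2 or cKO replicate 1, 3 or 4 (edgeR adjusted p 0.0505 to 0.068). Cdkn1a (p21), an inhibitor induced by p53, had 6.94, 6.53, 15.8 and 5.62 CPM in WT replicates 1 to 4 and 17.9, 21.1, 24.9 and 14.2 CPM in cKO replicates 1 to 4. WT replicate 3 was high among the WT libraries (a log2 change of 1.16 with an SE of 0.37; edgeR, adjusted p = 0.0503), and Cdkn1a narrowly missed the threshold. It passed without WT replicate 3 (adjusted p = 0.000644), with RLE, upper quartile or library size scaling, the filter at 1 CPM or the length offset (edgeR adjusted p 0.0379 to 0.0493), and with DESeq2, limma-voom and both TPM fits (adjusted p 0.00881 to 0.0241). Cdkn2d (p19), with a log2 change of -0.33, did not pass (edgeR, adjusted p = 0.0774, and 0.0354 without cKO replicate 1). The D cyclins, which act upstream of E2F, split: Ccnd1 had 5.17 ± 1.24 CPM over the WT and 31.9 ± 8.86 CPM over the cKO libraries (log2 change 2.63), and Ccnd2 and Ccnd3 had log2 changes of 0.61 and -0.34 (edgeR adjusted p = 0.000368, 0.0128 and 0.00759). Their partners Cdk4 and Cdk6 and the phosphatase Cdc25a had -0.03, 0.14 and 0.04 and did not pass. In both fits on log2 TPM the calls of Rfc5, Orc4, Mybl1, Mybl2, Rbl1, Lin37 and Ccnd3 were lost (limma adjusted p 0.0643 to 0.37), and with the offset for effective length those of Rfc5, Orc4, Mybl2, Rbl1, Cdkn1c and Ccnd2 (edgeR adjusted p 0.0541 to 0.565). Library size alone ended the calls of Rfc5 and Lin37 (0.107 and 0.0502), no count filter those of E2f8 and Rbl1 (0.057 and 0.0548), and DESeq2 that of Rbl1 (adjusted p = 0.05002).

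Markers of other cell types also differed (15.3% of all genes were higher and 15.1% lower). All 10 markers of stellate cells and fibroblasts rose, with sums of 118 to 138 CPM in WT and 275 to 367 CPM in cKO (Lrat, Dcn and Pdgfra at log2 changes of 1.45, 1.57 and 1.63). Of 8 T and NK cell markers tested 4 were higher, among them Cd8a, Cd3d and Nkg7 (log2 changes of 2.65, 1.00 and 1.12), with sums of 2.86 to 3.77 CPM in WT and 4.5 to 7.9 CPM in cKO. The call on Cd3d was lost with the offset for effective length (edgeR adjusted p = 0.218) and in both TPM fits (limma adjusted p = 0.22 and 0.2). Cholangiocyte markers had 3 of 7 higher and 1 lower (log2 changes of Cldn4 2.90, Epcam 1.5 and Spp1 -0.68) and sums of 46.4 to 61.6 CPM in WT and 40.7 to 48.7 CPM in cKO. Hepatocyte markers had 4 of 9 lower and 1 higher (log2 changes of Ttr -0.68, Serpina1c -0.62 and Cps1 0.58, the last lost without WT replicate 3 at an edgeR adjusted p of 0.0516). The cholangiocyte and hepatocyte sums overlapped between genotypes, as did those of the other lists. A sum follows its most abundant markers, and the median log2 change of the cholangiocyte markers was 0.55. Of tested endothelial markers 1 of 8 was higher (12.5%), and of erythroid markers 1 of 5 was lower (20%). No marker of B and plasma cells, of Kupffer cells and macrophages or of neutrophils passed. B and plasma cell markers summed to 9.65 to 17.2 CPM in WT and 8.31 to 15.1 CPM in cKO. For Kupffer cells and macrophages the sums were 265 to 402 CPM in WT and 211 to 354 CPM in cKO, for neutrophils 1.06 to 1.73 CPM in WT and 1.23 to 4.93 CPM in cKO, for erythroid cells 75.5 to 129.6 CPM in WT and 75.4 to 111 CPM in cKO and for endothelial cells 129 to 235 CPM in WT and 169 to 249 CPM in cKO. No marker found in the files was at 0 in all libraries. The part of these cells in the levels of the cell cycle genes was not tested.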

How the data were processed

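Whole liver RNA of 4 WT and 4 cKO samples was analysed from tables of genes. Extraction used Trizol and library preparation a TruSeq kit, per the labels' protocols. The submitters' processing notes name STAR 2.5.1, RSEM and the build mm10; the sources used here do not give the annotation or the strand setting. The authors deposited RSEM expected counts, which divide shared reads between genes, effective lengths, and TPM, scaled for length and to the same total in each library, per the file headers.

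Expected counts were rounded, filtered with filterByExpr by genotype (minimum count 10, minimum total 15) and tested with edgeR 4.0.16 (R 4.3.3; TMM, estimateDisp, robust glmQLFit with legacy off, glmQLFTest), with Benjamini-Hochberg adjustment over 15562 genes at 0.05. Standard errors came from the F statistic. The fit was tested on simulated data. TPM was used for levels between genes. Libraries of the same genotype were not duplicates (chi-square over genes at least 28.9 times its degrees of freedom). Alternatives were RLE and upper quartile factors, library size alone, other filters, an effective length offset, DESeq2 1.42.0, limma 3.58.1 (voom, and on log2(TPM + 1) and log2(TPM + 0.1), scales that understate the change of low genes), a replicate block, adjusted p under 0.01, and leaving out each library.

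The members and lists were chosen with earlier results of these data known. The text names all members, from each other cell cycle list the 4 genes of smallest p (all genes of a list of at most 6), and up to 3 markers of a cell type. Promoters were printed for the 2 members of smallest p in each direction in RefSeq's table. Figures used matplotlib 3.10.9.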

Additional observations from a re-analysis of the deposited data

Results flagged for a closer look

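In 8 of 82 sets of 4 libraries (41 tested members in 2 genotypes), 1 library lay far from the other 3 in CPM (Dixon's test at the 0.05 level). Chance gives about 1 set in 20. Mcm2 had 1.6 CPM in WT replicate 3, against 0.959 to 1.05 CPM in the other 3 WT libraries. Mcm4 had 1.17 CPM in cKO replicate 2, against 1.68 to 1.79 CPM in the other 3 cKO libraries. Hells had 0.421 CPM in cKO replicate 1, against 0.698 to 0.72 CPM in the other 3 cKO libraries. Cdk2 had 8.77 CPM in cKO replicate 4, against 10.6 to 10.7 CPM in the other 3 cKO libraries. Ccna2 had 1.03 CPM in cKO replicate 1, against 0.575 to 0.63 CPM in the other 3 cKO libraries. Ccnb2 had 0.499 CPM in cKO replicate 3, against 0.919 to 0.978 CPM in the other 3 cKO libraries. Kif20a had 0.259 CPM in WT replicate 2, against 0.469 to 0.504 CPM in the other 3 WT libraries. Kif20a had 0.818 CPM in cKO replicate 4, against 0.536 to 0.554 CPM in the other 3 cKO libraries. Of these genes only Cdk2 passed the test of genotype, and its low library, cKO replicate 4, lay farther from WT than the other 3 cKO libraries did.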

How the results depend on the processing

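Of the called members, Tk1, Cdk2, Cdk1 and Stmn1 kept their call under all alternatives. Counts of calls moved in several alternatives, in some of them by 1.5 times or less. Library size alone gave 3621 genes higher and 1335 lower. The fits on log2(TPM + 1) and log2(TPM + 0.1) gave 3880 higher and 878 lower, and 3868 and 876. An adjusted p under 0.01 gave 1180 and 1048 genes, 0 S members higher and 2 G2-M members higher. At least 1 CPM in 4 libraries left 3 G2-M members higher, with fewer of them tested, as did the offset for effective length, where 3 S members were lower. Limma-voom left 2 S members higher. Leaving out 1 library gave 1752 to 2541 genes higher and 1629 to 2509 lower, 0 to 3 S members higher and 2 to 3 lower, and 2 to 7 G2-M members higher and 0 lower; the lowest counts came without cKO replicate 4 (0 S and 2 G2-M members higher) and the most G2-M members, 7, without cKO replicate 3. The cause was not tested.

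Medians ran from 0.10 to 0.64 for G2-M and from -0.07 to 0.20 for S members. Several estimates changed sign without a call, most of them near 0 in the main edgeR fit. Birc5 (-0.40) and Aurkb (0.20) were not near 0 there. The length that RSEM assigned to them was 0.797 and 1.54 times as long in cKO as in WT. With library size alone Cstf1, Cdk4, Pcna, Tyms, Rrm1 and Ccna2 had log2 changes of 0.038, 0.071, 0.0038, 0.00038, 0.031 and 0.084, and with the length offset Tyms, Ccna2 and Aurkb had 0.049, 0.015 and -0.41. On log2(TPM + 1) Cstf1, Cdk4, Gins2, Pcna, Tyms, Ccna2, Aurkb and Birc5 had 0.13, 0.14, 0.034, 0.076, 0.21, 0.039, -0.087 and 0.080, and on log2(TPM + 0.1) 0.14, 0.14, 0.039, 0.080, 0.23, 0.11, -0.27 and 0.11. Leaving out 1 library gave -0.022 to 0.17 for Mcm4, -0.25 to 0.079 for Ccna2, -0.032 to 0.13 for Ube2c, -0.18 to 0.018 for Rrm1, -0.10 to 0.022 for Cdk4 and -0.013 to 0.18 for Cdc25a.

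Deviations of same-numbered libraries from their genotype means were weakly and positively correlated (r of 0.042 to 0.057 across genes). WT replicates 1, 2 and 3 each had their highest r with the cKO library of the same number. WT replicate 4 had its highest with cKO replicate 2 (0.092). Libraries of different numbers had r from -0.104 to 0.092, and the labels do not say what the numbers mark. With a replicate block 2525 genes were higher and 2416 lower, and 4 G2-M members were higher (Mki67 at an edgeR adjusted p of 0.064 and Rbl1 at 0.0528 were then not called, and Cdkn1a at 0.00344 was). Low counts limit the G2-M members: 2 of 25 could not be tested.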

Other observations

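Some members share their 5′ end with another gene, which starts within 1000 bases on the opposite strand in RefSeq's annotation of GRCm38.p6. There were 4 such pairs among the members in the promoter table. Besides Tk1 and Afmid, Mcm7 is paired with Ap4m1, of an adaptor complex for vesicles, Nusap1 with Oip5, of centromere assembly, and Aurka with Cstf1, of messenger RNA cleavage. Ap4m1 was lower in cKO (log2 change -0.49, SE 0.08, edgeR adjusted p = 0.00118), where Mcm7 had a log2 change of -0.20 and did not pass. Oip5 was higher (1.62, SE 0.40, edgeR adjusted p = 0.011) at a low level of 0.0972 CPM in WT and 0.298 CPM in cKO, where Nusap1 had 0.58 and did not pass. The WT mean of Oip5 was under the count filter's cut of 0.199 CPM, so it was tested mainly through its cKO libraries. Cstf1 had -0.07 (edgeR adjusted p = 0.455) and Aurka -0.33, and neither passed. The call on Ap4m1 was lost in both fits on log2 TPM (limma adjusted p = 0.0549 and 0.0545). Whether the partners change together was not tested. The genes of these pairs overlap by 91 to 585 bases, so reads from those bases cannot be told apart without the strand.

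Birc5 lies on chromosome 11 close to Tk1 and Afmid, with its start at 117849237. Its level was 3.18 ± 0.81 CPM over the WT and 2.4 ± 0.459 CPM over the cKO libraries (a log2 change of -0.40 with an SE of 0.20; edgeR, adjusted p = 0.15).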
